A study of Mus musculus with 12 samples.

Results

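Transcripts of 50 cell cycle and proliferation genes were followed in alveolar macrophages from the lungs of mice treated with bleomycin. The genes were taken by name from a list of cell cycle genes and not by a cut on their values. The list was chosen with earlier results of these data known, so the choice was not blind to them. All 50 had a row among the 26855 genes of the count table. All 50 also passed the filter on low counts that left 12625 genes for testing. By role, 8 of them act in G1 and at the entry into S phase, 15 in S phase and DNA replication and 23 in G2 and mitosis. The other 4 (Hmgb2, H2afz, Stmn1 and Tubb5) encode chromatin and tubulin-related proteins whose transcripts are abundant in growing cells.

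A cell that re-enters the cycle first raises D-type cyclins, which bind the kinases CDK4 and CDK6 and phosphorylate the retinoblastoma protein RB. This frees E2F factors, which switch on genes for the MCM helicase, nucleotide synthesis and the sliding clamp PCNA. Later, the kinase CDK1 with B-type cyclins drives mitosis, and the transcripts of mitotic genes reach their peak in G2. Resident alveolar macrophages are known to maintain themselves by dividing in the lung, and Mki67 and Top2a transcripts are widely read as marks of cycling cells.

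The cells came from bronchoalveolar lavage fluid (BALF) taken at day 14 of the bleomycin model of lung fibrosis. Filters of different pore size had parted fractions with many or few border-associated alveolar macrophages, and a sorter then gated the cells on side scatter and on BODIPY, which stains neutral lipid. The 12 libraries form 3 groups of 4 titled UPBIG, UPSMALL and DOWN; every group carried the same label for tissue and cell type, and no genotype, strain or age was given in the sources used here. No label ties a title to a size fraction or a sorting gate, or says that the numbered replicates were separate mice, so a p-value here measures the spread between samples alone, which may be technical.

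Library totals lay between 17109669 and 23282621 expected counts. RSEM divides reads that fit several genes, and 9 of the 50 genes (Ccnd1, Ccnd2, Ccnd3, Cdk4, Cdk6, Pcna, Ccna2, Prc1 and Stmn1) had a value that was not exactly whole in all 12 libraries, so their counts rest in part on that division. Hmgb2, H2afz and Kif20a had such a value in 11 libraries and Ccnb1 in 6, and 22 of the 50 genes had one in some library. All but Pcna and Stmn1 of the 9 genes named first share exon sequence with a gene on the opposite strand. So do Cdk2, Mcm7, Tk1, Cdc20, Ube2c, Plk1, Kif20a and Nusap1, 15 of the 50 in all. The macrophage label was set against marker lists, which were written with earlier results of these data known. The 15 alveolar macrophage markers summed to 17074 to 21337 CPM (counts per 1e6 of a library total scaled by the trimmed mean of M-values) in UPBIG, 15342 to 18705 CPM in UPSMALL and 10868 to 15315 CPM in DOWN. The lectin Siglecf, a defining marker of these cells, was present in every library, at 39.2 to 44.9 CPM in UPBIG, 23.8 to 36.5 CPM in UPSMALL and 15.0 to 23.7 CPM in DOWN. Markers of other cells were not evenly spread. Marker sums take in every listed gene with a row, also any under the low-count filter. T and NK cell markers, 16 of them tested, summed to 35.6 to 78.6 CPM in UPBIG, 23.8 to 57.1 CPM in UPSMALL and 80.1 to 181.0 CPM in DOWN. Dendritic cell markers, 14 of them tested, summed to 9.96 to 15.3, 40.2 to 98.1 and 86.1 to 199.3 CPM in the same groups. Libraries are bulk samples, so fewer cells of a type and less RNA per cell cannot be told apart in any value that follows.

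DOWN replicate 4 and UPSMALL replicate 4 had the lowest limma-voom quality weights of the 12 libraries (0.623 and 0.453). DOWN replicate 4 also stood apart from the other 3 DOWN libraries in its mitotic transcripts, so comparisons with DOWN are also given without it where that changed a call or moved a called change or a median by over 1.5 times.

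A change is called where the adjusted p of edgeR's quasi-likelihood F test, corrected by the Benjamini-Hochberg method over all tested genes, lay under 0.05. Unless a tool, a scaling or a missing library is named, calls are those of this test with all 12 libraries, TMM scaling and the low-count filter. Other settings called further members. Shares of all tested genes called are given for this test with all libraries and without DOWN replicate 4. Counts under other settings, or at an unadjusted p, are not set against such a share. A joint test of the 3 groups called 8 of the 50 genes against a background of 13.8% of all tested genes. Without DOWN replicate 4, left out after its values were seen, it called 16 against a background of 12.4%. The 8 were Ccnd2 and Cdk6 of the G1 genes, Mcm3 and Tk1 of the S phase genes, Cdk1, Cenpf and Prc1 of the mitotic genes, and Hmgb2. In the fits that left out 1 of the other 11 libraries the number was 4 to 7, at the low end 4 (without UPBIG replicate 2, DOWN replicate 2 or DOWN replicate 3) or 5 (without UPSMALL replicate 1 or DOWN replicate 1). Calls of Ccnd2, Cdk6 and Prc1 were kept in all 12 of these fits.

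**Figure D1:**
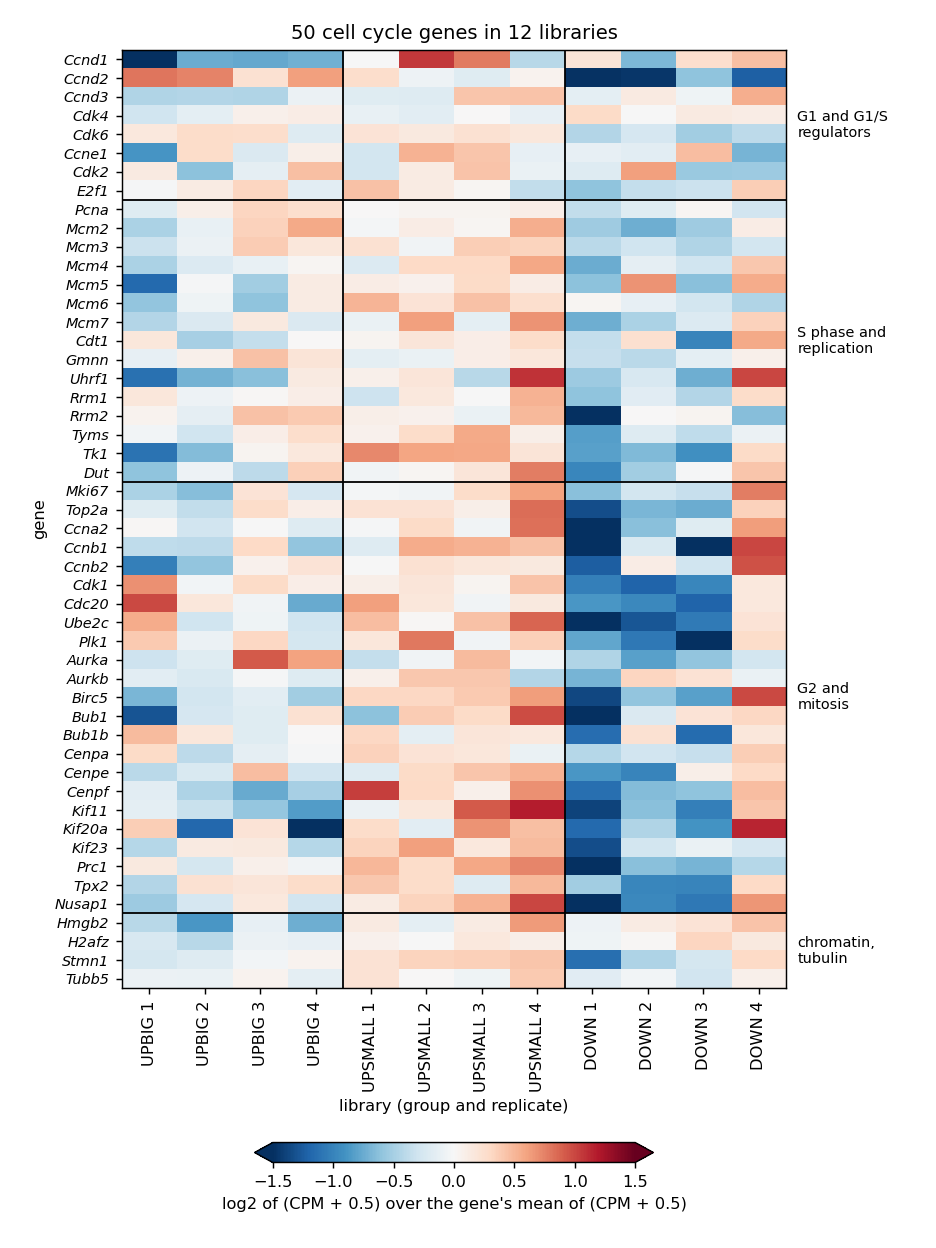
Each row is a gene and each column a library; colour is the log2 of (CPM + 0.5) in that library over the gene's mean of (CPM + 0.5), cut at 1.5 in both directions, and the lines divide the roles and the groups. In the mitotic block, DOWN replicates 1 to 3 are mostly blue and DOWN replicate 4 mostly red: it holds the highest DOWN value for 20 of 23 mitotic genes, while Ccnd2 and Cdk6 are blue in all 4 DOWN libraries.

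Promoters of these genes differ by role. The bases from 250 before to 50 after the transcription start were read from RefSeq (GRCm38.p6) for the 41 genes that had an entry, and 3 kinds of word were searched on both strands, overlaps allowed. They were TTTGAA, the core of the CHR element that the DREAM and MYB-MuvB complexes bind in late cell cycle genes; CCAAT, the core bound by NF-Y; and the E2F words TTTCCCGC, TTTCGCGC, TTTGCCGC and TTTGGCGC. TTTGAA occurred in 14 of 19 mitotic windows (73.7%), in 1 of 13 S phase windows (that of Mcm2), in 0 of 6 G1 windows and in 20.2% of all 27025 genes with a window. All 14 of those mitotic windows also held CCAAT, a pairing found in 8.97% of all windows. An E2F word occurred in 6 of 13 S phase windows (46.2%), in 1 mitotic window (that of Cdk1) and in 2.6% of all windows. A match is a description of the letters and not a site shown to be bound. Windows are printed for 6 of the 8 genes called by the joint test with all libraries. Ccnd2 is named only, and for Cdk6 the RefSeq start lies 2408 bases from the GENCODE gene start. In each, 5′ to 3′ on the gene's own strand, capitals mark the words found.

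The S phase windows are those of Mcm3 (chr1:20820263-20820562, minus strand), with 3 CCAAT and 2 E2F words, and Tk1 (chr11:117825965-117826264, minus strand), with none of the 3 kinds.
Mcm3: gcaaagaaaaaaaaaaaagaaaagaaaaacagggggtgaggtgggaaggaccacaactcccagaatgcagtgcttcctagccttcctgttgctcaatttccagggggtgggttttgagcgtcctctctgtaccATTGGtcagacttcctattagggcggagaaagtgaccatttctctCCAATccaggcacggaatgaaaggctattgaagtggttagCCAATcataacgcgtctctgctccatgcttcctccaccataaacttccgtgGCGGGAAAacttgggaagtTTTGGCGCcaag
Tk1: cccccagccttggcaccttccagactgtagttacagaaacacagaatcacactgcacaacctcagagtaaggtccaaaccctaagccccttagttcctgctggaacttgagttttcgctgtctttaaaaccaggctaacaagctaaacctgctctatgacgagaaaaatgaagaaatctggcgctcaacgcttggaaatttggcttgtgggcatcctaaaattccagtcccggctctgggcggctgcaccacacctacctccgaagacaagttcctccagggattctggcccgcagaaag
Among the mitotic genes, the window of Cdk1 (chr10:69352863-69353162, minus strand) held all 3 kinds of word, and those of Cenpf (chr1:189688037-189688336, minus strand) and Prc1 (chr7:80294201-80294500, plus strand) each held 1 TTTGAA beside CCAAT.
Cdk1: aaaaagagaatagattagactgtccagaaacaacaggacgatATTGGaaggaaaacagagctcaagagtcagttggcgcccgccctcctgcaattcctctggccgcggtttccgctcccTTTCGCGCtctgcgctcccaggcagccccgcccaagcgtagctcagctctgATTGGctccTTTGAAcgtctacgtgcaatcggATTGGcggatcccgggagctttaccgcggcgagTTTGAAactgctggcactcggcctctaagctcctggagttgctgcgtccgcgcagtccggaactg
Cenpf: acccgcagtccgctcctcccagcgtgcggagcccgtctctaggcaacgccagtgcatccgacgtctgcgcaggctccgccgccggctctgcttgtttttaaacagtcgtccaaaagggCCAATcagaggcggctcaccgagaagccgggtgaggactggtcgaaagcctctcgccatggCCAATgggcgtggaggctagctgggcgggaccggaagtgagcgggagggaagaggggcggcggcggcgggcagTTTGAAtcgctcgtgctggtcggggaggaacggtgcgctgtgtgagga
Prc1: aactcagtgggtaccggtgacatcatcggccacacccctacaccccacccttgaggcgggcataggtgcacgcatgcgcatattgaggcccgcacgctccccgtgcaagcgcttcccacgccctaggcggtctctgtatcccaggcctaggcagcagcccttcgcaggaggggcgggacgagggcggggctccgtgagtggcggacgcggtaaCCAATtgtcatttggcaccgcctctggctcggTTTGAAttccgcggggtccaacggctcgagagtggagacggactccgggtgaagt
The window of Hmgb2 (chr8:57511593-57511892, plus strand) held 2 TTTGAA and 4 CCAAT words.
Hmgb2: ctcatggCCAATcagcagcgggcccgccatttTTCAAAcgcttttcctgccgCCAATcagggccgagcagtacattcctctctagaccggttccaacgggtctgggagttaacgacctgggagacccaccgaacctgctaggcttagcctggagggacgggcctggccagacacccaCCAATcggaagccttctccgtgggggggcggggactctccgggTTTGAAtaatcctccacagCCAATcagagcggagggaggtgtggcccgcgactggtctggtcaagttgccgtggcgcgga

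With all libraries, the largest called change of the 50 was that of a G1 gene; without DOWN replicate 4, called changes of the mitotic genes Nusap1, Kif11, Ube2c and Plk1 were larger. Ccnd2, which encodes cyclin D2 (chromosome 6, 127125162 to 127152193, minus strand, mm10), had 50.03, 48.1, 33.5 and 44.0 CPM in UPBIG libraries 1 to 4. It had 34.2, 26.9, 25.1 and 29.4 CPM in UPSMALL libraries, and 9.83, 10.0, 18.5 and 11.9 CPM in DOWN libraries. All 8 UPBIG and UPSMALL libraries lay above all 4 DOWN libraries, and all 4 UPBIG libraries lay above 3 of the 4 UPSMALL libraries. The log2 fold change of Ccnd2 was 1.80 ± 0.20 (SE) in UPBIG over DOWN (adjusted p = 2.99e-06) and 1.20 ± 0.19 in UPSMALL over DOWN (adjusted p = 0.00378), and both calls were kept in each of the 12 fits that left out a library. UPBIG over UPSMALL gave 0.60 ± 0.19 (adjusted p = 0.0689), which was not called with all libraries but was without UPBIG replicate 3 (adjusted p = 0.0394) and without DOWN replicate 3 (adjusted p = 0.0262). Ccnd2 shares exon sequence with 9330179D12Rik and Gm43126 on the opposite strand, and the sources used here do not say whether reads were assigned by strand.

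Cyclin D3, encoded by Ccnd3, showed another order. Its level was 33.7, 34.0, 33.8 and 43.6 CPM in UPBIG, 40.7, 40.4, 62.2 and 62.8 CPM in UPSMALL, and 42.0, 51.0, 44.5 and 68.0 CPM in DOWN. UPBIG libraries were the lower ones, but their range met that of both other groups. The log2 fold changes of -0.51 ± 0.18 in UPBIG over UPSMALL (adjusted p = 0.109) and -0.50 ± 0.18 in UPBIG over DOWN (adjusted p = 0.0572) did not pass the test; that in UPBIG over DOWN did without UPBIG replicate 4 (adjusted p = 0.0423) and without DOWN replicate 1 (adjusted p = 0.0482). On library totals alone Ccnd3 was called lower in UPBIG in both pairs, at -0.80 and -0.84 (adjusted p = 0.0168 and 0.00536).

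Ccnd1, the gene of cyclin D1, had the lowest level of the 3 per kilobase, at 0.112 ± 0.057, 0.466 ± 0.26 and 0.342 ± 0.13 CPM per kilobase in UPBIG, UPSMALL and DOWN (SD, n = 4). It had 0.125, 0.657, 0.645 and 0.682 CPM in UPBIG, 1.43, 3.55, 2.85 and 0.955 CPM in UPSMALL, and 1.73, 0.722, 1.82 and 2.17 CPM in DOWN. Every UPBIG library lay below every other library, yet on 34 counts in UPBIG, 188 in UPSMALL and 137 in DOWN. Its fold changes of -2.04 ± 0.61 against UPSMALL (adjusted p = 0.0552) and -1.60 ± 0.61 against DOWN (adjusted p = 0.0777) missed the threshold; without UPSMALL replicate 4 the one against UPSMALL passed it (adjusted p = 0.0366). DESeq2 called Ccnd1 lower in UPBIG in both pairs.

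Per kilobase of exon, the make-up of the D cyclin transcripts differed between the groups, as a description with no test. Of the summed CPM per kilobase of the 3 genes, Ccnd2 took 52.2% ± 5.55 in UPBIG libraries (SD, n = 4), 33.2% ± 7.14 in UPSMALL and 17.96% ± 5.86 in DOWN. Ccnd3 took 46.5% ± 5.07, 61.7% ± 7.69 and 77.5% ± 6.58 in the same order of groups. The lowest Ccnd2 share in UPBIG (47.1%) lay above the highest in UPSMALL (42.3%), and the highest in DOWN (26.5%) lay above the lowest in UPSMALL (25.7%). Ccnd1 took at most 9.18% in any library.

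Of the kinases that D cyclins activate, Cdk6 was lower in DOWN under TMM scaling, and Cdk4 was not called in any pair under it. Cdk6 had 34.2, 37.3, 37.0 and 26.7 CPM in UPBIG, 35.5, 33.9, 35.9 and 34.6 CPM in UPSMALL, and 22.5, 25.7, 21.2 and 23.2 CPM in DOWN. No UPBIG or UPSMALL library reached down to the DOWN range. The log2 fold change was 0.55 ± 0.13 in UPBIG over DOWN (adjusted p = 0.00729) and 0.60 ± 0.13 in UPSMALL over DOWN (adjusted p = 0.0328). The call in UPBIG over DOWN was kept in all 12 fits without a library; that in UPSMALL over DOWN was kept in 7 and lost, with adjusted p up to 0.112, without UPSMALL replicate 1, 2 or 3 or DOWN replicate 1 or 3. Both calls of Cdk6 were lost on library totals alone, at 0.22 in UPBIG over DOWN (adjusted p = 0.271) and 0.55 in UPSMALL over DOWN (adjusted p = 0.0873). UPBIG and UPSMALL differed by -0.05 ± 0.13 (adjusted p = 0.904).

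Cdk4 had 53.8, 59.7, 69.6 and 71.7 CPM in UPBIG, 61.2, 59.4, 66.6 and 60.7 CPM in UPSMALL, and 81.0, 65.7, 72.5 and 71.2 CPM in DOWN. The 3 ranges met, and its log2 fold changes were 0.04 ± 0.12, -0.19 ± 0.12 and -0.23 ± 0.12 in UPBIG over UPSMALL, UPBIG over DOWN and UPSMALL over DOWN (adjusted p = 0.919, 0.306 and 0.427). On library totals alone Cdk4 was called lower in UPBIG over DOWN, at -0.51 (adjusted p = 0.00468). The later G1 genes, Ccne1 (cyclin E1), Cdk2 (its kinase) and the transcription factor gene E2f1, lay between 1.81 and 10.5 CPM in all libraries and had adjusted p of 0.518 or more in every pair. Ccnd1, Ccnd3, Cdk4, Cdk6 and Cdk2 each share exon sequence with a gene on the opposite strand (LTO1, Bysl, Tspan31, Gm17590 and Pmel).

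**Figure D2:**
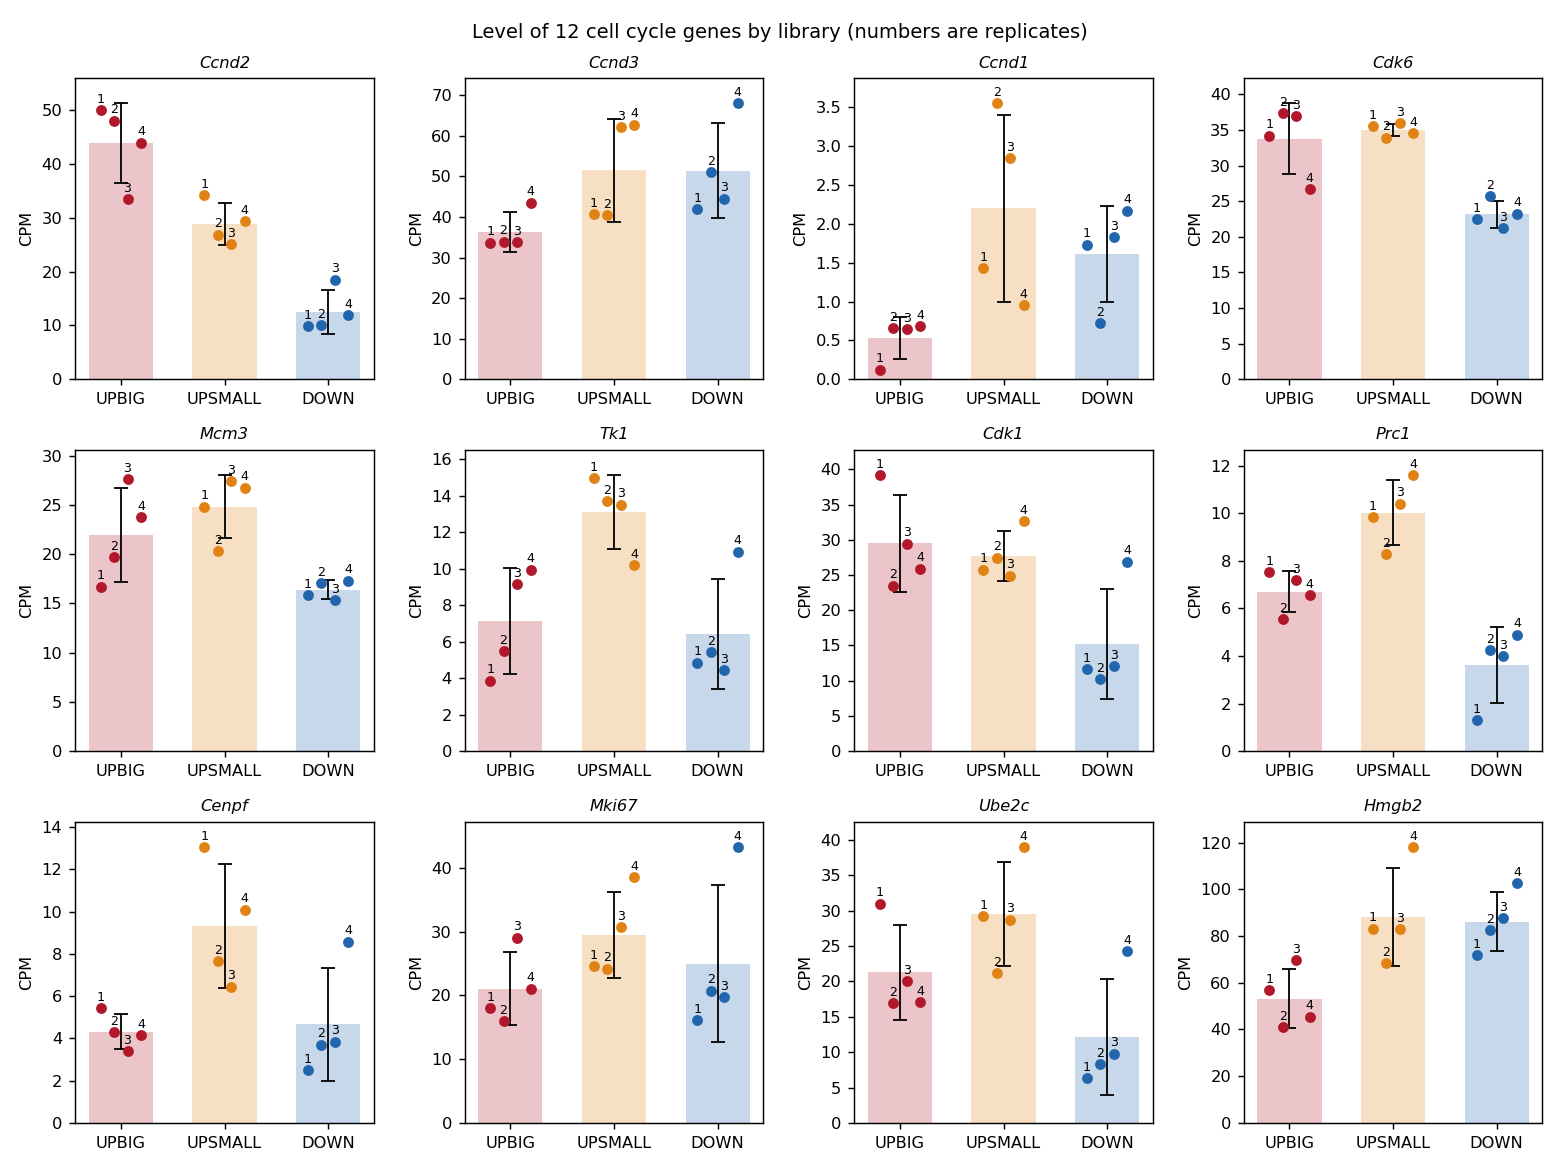
Points are libraries with their replicate number, bars the mean and whiskers the SD of 4 libraries, in CPM on a scale from 0 for each gene. Ccnd2 and Cdk6 are higher in all UPBIG and UPSMALL libraries than in any DOWN library, Hmgb2 is lower in UPBIG than in DOWN, and for Cdk1, Tk1, Mki67 and Ube2c DOWN replicate 4 lies well above DOWN replicates 1 to 3.

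S phase genes gave no call between pairs of groups in the edgeR fit with all libraries, TMM scaling and the filter. Of the 15, 0 were called there, against backgrounds for higher and lower calls of 3.22% and 2.49% of tested genes in UPBIG over UPSMALL, 9.03% and 8.48% in UPBIG over DOWN, and 0.594% and 0.547% in UPSMALL over DOWN. At an unadjusted p under 0.05, a threshold these backgrounds do not cover, there were 2 in UPBIG against UPSMALL, 3 in UPBIG against DOWN and 5 in UPSMALL against DOWN. DESeq2 called 1 (Mcm6), 1 (Pcna) and 2 (Mcm3 and Tk1) in these pairs, and limma-voom 1 (Tk1), 2 (Gmnn and Pcna) and 1 (Tk1). In edgeR, library totals alone gave Mcm6 and Tk1 in UPBIG against UPSMALL, and no filter gave Tk1 there, Rrm2 in UPBIG against DOWN, and Mcm3, Tk1 and Tyms in UPSMALL against DOWN. Their summed level was 252.4, 285.0, 341.6 and 342.7 CPM in UPBIG, 303.4, 318.2, 330.7 and 362.0 CPM in UPSMALL, and 206.6, 255.6, 256.4 and 296.0 CPM in DOWN, in libraries 1 to 4 of each group. The UPBIG range covers most of the UPSMALL range, and the highest DOWN library lay just under the lowest UPSMALL library. All 15 had a log2 fold change above 0 in UPSMALL over DOWN, with a median of 0.48, where 49.7% of all tested genes lay above 0 and their median was -0.003; 14 of the 15 did on library totals alone. Because the DOWN libraries enter every one of these fold changes, the 15 signs are not 15 separate observations.

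Pcna, the sliding clamp of DNA polymerase, held the highest level of the S phase genes per kilobase of exon, a mean of 43.5 CPM per kilobase in UPBIG, 41.1 in UPSMALL and 34.6 in DOWN. Pcna had 83.7, 101.1, 119.5 and 113.6 CPM in UPBIG, 95.6, 98.5, 98.1 and 102.0 CPM in UPSMALL, and 73.5, 83.8, 97.0 and 78.4 CPM in DOWN. One or more DOWN libraries overlapped each other group. Its log2 fold change of 0.33 ± 0.12 in UPBIG over DOWN missed the threshold (adjusted p = 0.0701), and passed it without UPBIG replicate 1 (adjusted p = 0.0213) or DOWN replicate 3 (adjusted p = 0.0356).

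Among the helicase subunits Mcm2 to Mcm7, Mcm3 was called by the joint test (adjusted p = 0.0457). It had 16.7, 19.7, 27.6 and 23.7 CPM in UPBIG, 24.8, 20.3, 27.4 and 26.7 CPM in UPSMALL, and 15.8, 17.04, 15.3 and 17.3 CPM in DOWN. UPSMALL libraries all lay above DOWN, with a log2 fold change of 0.60 ± 0.17 that did not pass in the pair itself (adjusted p = 0.0881). The joint call of Mcm3 was kept in only 3 of the 12 fits without a library. Mcm5 moved in another way: it had 2.93, 7.05, 4.86 and 7.84 CPM in UPBIG, 7.81, 7.495, 8.85 and 7.75 CPM in UPSMALL, and 4.502, 11.70, 4.46 and 10.8 CPM in DOWN. Its DOWN libraries fell into a low pair and a high pair, and no pair of groups differed (adjusted p = 0.383 to 0.985). Mcm6 was lower in every UPBIG library (8.26 to 14.0 CPM) than in any UPSMALL library (14.9 to 18.4 CPM), with a log2 fold change of -0.63 ± 0.20 and an adjusted p of 0.0743; without UPBIG replicate 4 it was called lower in UPBIG. Mcm2, Mcm4 and Mcm7 had adjusted p of 0.194 or more in every pair.

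Tk1, a thymidine kinase of the salvage pathway, was the other S phase gene called by the joint test (adjusted p = 0.0425). It had 3.86, 5.50, 9.14 and 9.96 CPM in UPBIG, 15.0, 13.7, 13.5 and 10.2 CPM in UPSMALL, and 4.85, 5.44, 4.46 and 10.9 CPM in DOWN. UPSMALL held the 4 highest values but for DOWN replicate 4, which exceeded UPSMALL replicate 4. The log2 fold changes were -0.88 ± 0.31 in UPBIG over UPSMALL (adjusted p = 0.110) and 1.03 ± 0.31 in UPSMALL over DOWN (adjusted p = 0.119). Without DOWN replicate 4, Tk1 was called higher in UPSMALL than in DOWN, at 1.42 ± 0.29 (adjusted p = 0.0236). Its joint call was kept in 5 of the 12 fits without a library. Tk1 overlaps Afmid on the opposite strand.

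The other 7 S phase genes were not called in any pair or by the joint test. They were Cdt1 and Gmnn (the licensing factor and its inhibitor geminin), Uhrf1 (a keeper of DNA methylation), Rrm1 and Rrm2 (ribonucleotide reductase), Tyms and Dut (thymidylate synthesis). Uhrf1 ranged from 1.31 to 3.82 CPM in UPBIG, 2.45 to 7.82 CPM in UPSMALL and 1.88 to 7.36 CPM in DOWN, the highest value of each group being that of replicate 4. Gmnn was the only further S phase gene that changed without DOWN replicate 4: it rose in UPBIG over DOWN, at 0.48 ± 0.15 (adjusted p = 0.0339).

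Calls among the mitotic genes depended on which libraries were used. With all libraries, 2 of the 23 rose in UPBIG over DOWN and 1 in UPSMALL over DOWN. Across the whole 50, UPBIG over DOWN had 4 genes higher (Ccnd2, Cdk6, Cdk1 and Prc1; background 9.03% of tested genes) and 1 lower (Hmgb2; background 8.48%). On library totals alone, which lower the median of all tested genes to -0.36 in that pair, the split was 1 higher and 5 lower. UPSMALL over DOWN had 3 higher (Ccnd2, Cdk6 and Prc1, background 0.594%) and 0 lower (background 0.547%), and 0 lower by DESeq2 or limma-voom as well. At an unadjusted p under 0.05 it had 19 members, a looser threshold to which these backgrounds do not apply. UPBIG over UPSMALL had 0 higher (background 3.22%) and 1 lower (Hmgb2, background 2.49%). At an unadjusted p under 0.05 it had 10 members, again without a background at that threshold. DESeq2 called 1 higher (Ccnd2) and 4 lower (Ccnd1, Cenpf, Hmgb2 and Mcm6) in that pair. Limma-voom called 1 higher (Ccnd2) and 3 lower (Cenpf, Hmgb2 and Tk1), and library totals alone gave 0 higher and 9 lower. The share of members called in UPSMALL over DOWN, 3 of 50, was thus above its background, and the shares in both comparisons of UPBIG were near or below theirs.

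Leaving out DOWN replicate 4 raised these numbers. That library was chosen after its high mitotic values were seen, so a rise of mitotic genes over DOWN was built into the choice. The counts of this fit describe the remaining DOWN libraries, and the backgrounds beside them make no test. UPBIG over DOWN then had 12 members higher (background 8.24%) and 1 lower (7.23%), of which 8 higher were mitotic. UPSMALL over DOWN had 14 higher (background 0.789%) and 0 lower (0.534%), of which 10 were mitotic. UPBIG over UPSMALL had 0 higher (3.43%) and 3 lower (Birc5, Cenpf and Hmgb2; 2.46%). Called higher in both UPBIG and UPSMALL over DOWN in that fit were Ccnd2, Cdk6, Cdk1, Top2a, Ube2c, Plk1, Prc1, Tpx2, Nusap1 and Stmn1; the 2 comparisons share the DOWN libraries, so this is no independent repeat. Without DOWN replicate 1, which had the lowest mitotic level, UPBIG over DOWN had 2 higher and 2 lower. UPSMALL over DOWN had 1 higher, Ccnd2, without UPSMALL replicate 1, UPSMALL replicate 3 or DOWN replicate 3. UPBIG over DOWN also had 2 lower without UPBIG replicate 4 (Ccnd3 and Hmgb2) or UPSMALL replicate 4 (H2afz and Hmgb2). UPBIG over UPSMALL had 0 lower without UPBIG replicate 2, 2 lower without DOWN replicate 1 (Cenpf and Hmgb2), and 1 higher, Ccnd2, without UPBIG replicate 3 or DOWN replicate 3.

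The summed level of the 23 mitotic genes was 256.3, 216.3, 275.4 and 233.1 CPM in UPBIG libraries 1 to 4, 308.9, 307.4, 320.3 and 386.9 CPM in UPSMALL, and 116.7, 179.6, 164.3 and 387.0 CPM in DOWN. All UPSMALL libraries lay above all UPBIG libraries, 3 DOWN libraries lay below both groups, and DOWN replicate 4 was level with the highest UPSMALL library. In UPSMALL over DOWN, 23 of 23 mitotic genes had a log2 fold change above 0 (49.7% of all tested genes), with a median of 0.65, and 22 of 23 did on library totals alone. Without DOWN replicate 4 the median in UPSMALL over DOWN was 1.31. In UPBIG over DOWN, 15 of 23 did with a median of 0.21 (47.0% of all tested genes), but 10 of 23 with a median of -0.12 on library totals alone; relative to all tested genes that median was 0.24 higher. In UPBIG over DOWN, 22 of 23 lay above 0 without DOWN replicate 4, with a median of 0.69. In UPBIG over UPSMALL the median was -0.44, with 3 of 23 above 0 (46.7% of all tested genes), and 5 genes (Birc5, Cenpf, Kif11, Kif23 and Prc1) were lower in every UPBIG than in every UPSMALL library (5.35% of all tested genes). The same libraries enter every fold change of a pair, so the signs of the 23 genes are not 23 separate observations.

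**Figure D3:**
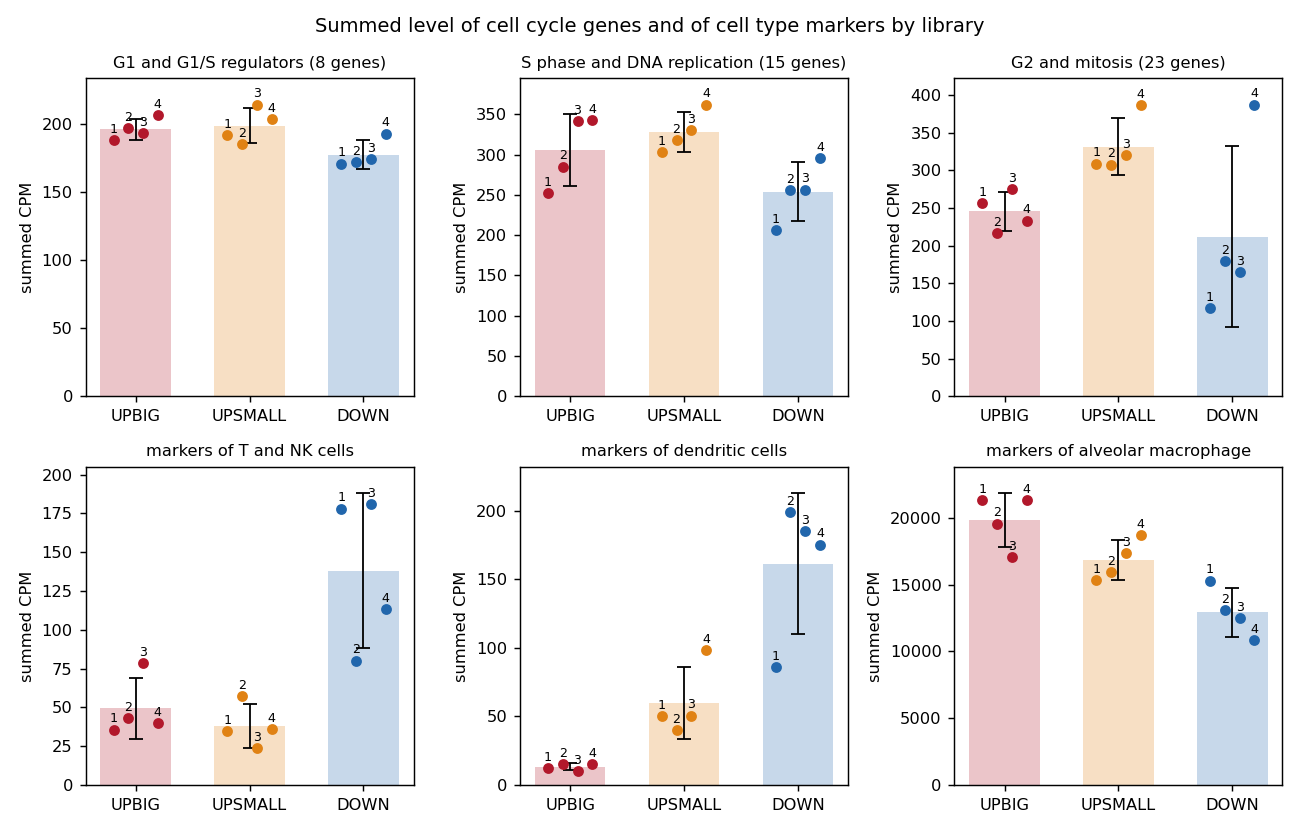
Upper panels show the summed CPM of the G1, S phase and mitotic genes and lower panels that of 3 marker lists; points are libraries with their replicate number, bars the mean and whiskers the SD of 4 libraries. DOWN replicate 4, at 387.0 CPM of mitotic genes, stands far above the other DOWN libraries (116.7 to 179.6 CPM), while its T and NK cell and dendritic cell markers lie within the DOWN range and its alveolar macrophage markers are the lowest of all (10868 CPM).

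Cdk1, the kinase that drives entry into mitosis, had 39.2, 23.5, 29.5 and 25.9 CPM in UPBIG, 25.8, 27.5, 24.9 and 32.7 CPM in UPSMALL, and 11.6, 10.2, 12.0 and 26.9 CPM in DOWN. DOWN replicates 1 to 3 lay at less than the lowest value of the other groups, and DOWN replicate 4 lay within their range. Cdk1 rose in UPBIG over DOWN, at 0.96 ± 0.26 (adjusted p = 0.0162), and this call was lost without UPBIG replicate 1 (adjusted p = 0.0559), DOWN replicate 1 (0.0516) or DOWN replicate 3 (0.0536). It was also lost on library totals alone, at 0.61 (adjusted p = 0.121). The log2 fold change of 0.87 ± 0.26 in UPSMALL over DOWN did not pass (adjusted p = 0.124), while DESeq2 and limma-voom called it. Without DOWN replicate 4 they were 1.40 ± 0.19 (adjusted p = 5.44e-05) and 1.31 ± 0.19 (adjusted p = 0.00142).

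Prc1, which bundles the microtubules of the spindle midzone, had 7.54, 5.56, 7.21 and 6.55 CPM in UPBIG, 9.83, 8.30, 10.4 and 11.6 CPM in UPSMALL, and 1.30, 4.24, 4.01 and 4.90 CPM in DOWN. It was the one mitotic gene whose 3 groups did not overlap, in the order UPSMALL, UPBIG, DOWN. The change was 1.48 ± 0.30 in UPSMALL over DOWN (adjusted p = 0.0223) and 0.90 ± 0.30 in UPBIG over DOWN (adjusted p = 0.0486), while UPBIG over UPSMALL gave -0.58 ± 0.30 (adjusted p = 0.322). The call in UPBIG over DOWN was kept in only 2 of the 12 fits without a library, those without UPSMALL replicate 4 and DOWN replicate 4, with adjusted p up to 0.100 in the others, and was lost on library totals alone, at 0.56 (adjusted p = 0.191). The call in UPSMALL over DOWN was kept in 9 and lost without UPSMALL replicate 1, UPSMALL replicate 3 or DOWN replicate 3, with adjusted p up to 0.0567. Prc1 overlaps Rccd1 on the opposite strand.

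Cenpf, a kinetochore protein gene, was called by the joint test (adjusted p = 0.0383). It had 5.42, 4.30, 3.40 and 4.16 CPM in UPBIG, 13.1, 7.64, 6.45 and 10.1 CPM in UPSMALL, and 2.51, 3.71, 3.85 and 8.58 CPM in DOWN. UPBIG lay wholly below UPSMALL, with a log2 fold change of -1.11 ± 0.34 (adjusted p = 0.0599) that passed without DOWN replicate 1 (adjusted p = 0.0438) or DOWN replicate 4 (0.0189), and by DESeq2 and limma-voom. Cenpf also rose in UPSMALL over DOWN without DOWN replicate 4, at 1.48 ± 0.30 (adjusted p = 0.0228). The joint call of Cenpf was kept in 5 of the 12 fits without a library.

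Of the usual marks of cycling cells, Mki67 was not called in any pair under any setting tried and Top2a was called under some. Mki67 had 18.01, 16.0, 29.1 and 21.1 CPM in UPBIG, 24.6, 24.2, 30.6 and 38.6 CPM in UPSMALL, and 16.1, 20.8, 19.8 and 43.3 CPM in DOWN. Its highest value in the series was that of DOWN replicate 4, and UPSMALL lay above the other 3 DOWN libraries. The log2 fold changes were -0.49 ± 0.28, -0.25 ± 0.28 and 0.24 ± 0.28 in UPBIG over UPSMALL, UPBIG over DOWN and UPSMALL over DOWN (adjusted p = 0.405, 0.622 and 0.789). When DOWN replicate 4 was left out, that in UPBIG over DOWN turned to 0.17 ± 0.21 (adjusted p = 0.659) and that in UPSMALL over DOWN was 0.66 ± 0.21 (adjusted p = 0.158).

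Top2a, the topoisomerase that untangles sister DNA, had 14.4, 12.6, 19.9 and 17.7 CPM in UPBIG, 19.1, 19.0, 17.5 and 29.6 CPM in UPSMALL, and 6.23, 9.97, 9.58 and 21.0 CPM in DOWN. As for Cdk1, DOWN replicates 1 to 3 were below all other libraries and DOWN replicate 4 was among them. With all libraries the changes did not pass (adjusted p = 0.322 in UPBIG over DOWN and 0.196 in UPSMALL over DOWN), but that in UPSMALL over DOWN did by limma-voom (adjusted p = 0.0377) and by edgeR without the filter (adjusted p = 0.00137). Without DOWN replicate 4, Top2a rose by 0.93 ± 0.24 on the log2 scale in UPBIG over DOWN (adjusted p = 0.0123) and by 1.33 ± 0.24 in UPSMALL over DOWN (adjusted p = 0.0104).

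Ccnb1, which encodes the mitotic partner cyclin B1 of CDK1, had 7.10, 7.05, 11.66 and 6.07 CPM in UPBIG, 8.18, 14.1, 13.75 and 12.9 CPM in UPSMALL, and 2.16, 7.94, 2.69 and 19.3 CPM in DOWN. The DOWN libraries alone spanned the whole range of the series. Its log2 fold changes of -0.62 ± 0.57, -0.01 ± 0.58 and 0.61 ± 0.57 in UPBIG over UPSMALL, UPBIG over DOWN and UPSMALL over DOWN (adjusted p = 0.660, 0.996 and 0.727) were about the size of their errors or smaller. Leaving out DOWN replicate 4, those against DOWN were 0.92 ± 0.39 for UPBIG (adjusted p = 0.129) and 1.53 ± 0.39 for UPSMALL (adjusted p = 0.0708), and the joint test called Ccnb1.

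Without DOWN replicate 4, further mitotic genes passed the test. The ubiquitin-conjugating enzyme gene Ube2c, which serves the anaphase-promoting complex, rose by 1.40 ± 0.25 in UPBIG over DOWN (adjusted p = 0.000792) and by 1.87 ± 0.25 in UPSMALL over DOWN (adjusted p = 0.000904). The spindle protein gene Nusap1 rose by 1.31 ± 0.37 (adjusted p = 0.0204) and 2.10 ± 0.37 (adjusted p = 0.00946) in the same comparisons, and the mitotic kinase gene Plk1 by 1.57 ± 0.42 (adjusted p = 0.0153) and 1.84 ± 0.42 (adjusted p = 0.0400). Birc5 (survivin, of the chromosomal passenger complex) and the spindle motor gene Kif11 passed in UPSMALL over DOWN alone of these pairs, at 1.34 ± 0.18 (adjusted p = 0.00108) and 1.93 ± 0.43 (adjusted p = 0.0343), and Cdc20, an activator of the anaphase-promoting complex, in UPBIG over DOWN, at 1.58 ± 0.47 (adjusted p = 0.0276). With all libraries, edgeR under TMM scaling and the filter called none of Ube2c, Nusap1, Plk1, Birc5, Kif11 and Cdc20 in any pair. Limma-voom called Ube2c higher in both comparisons with DOWN and Nusap1 higher in UPSMALL over DOWN, and edgeR on library totals alone or without the filter called Kif11 lower in UPBIG over UPSMALL. The library was left out after its values were known, so the larger numbers describe the other 3 DOWN libraries rather than the group.

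**Figure D4:**
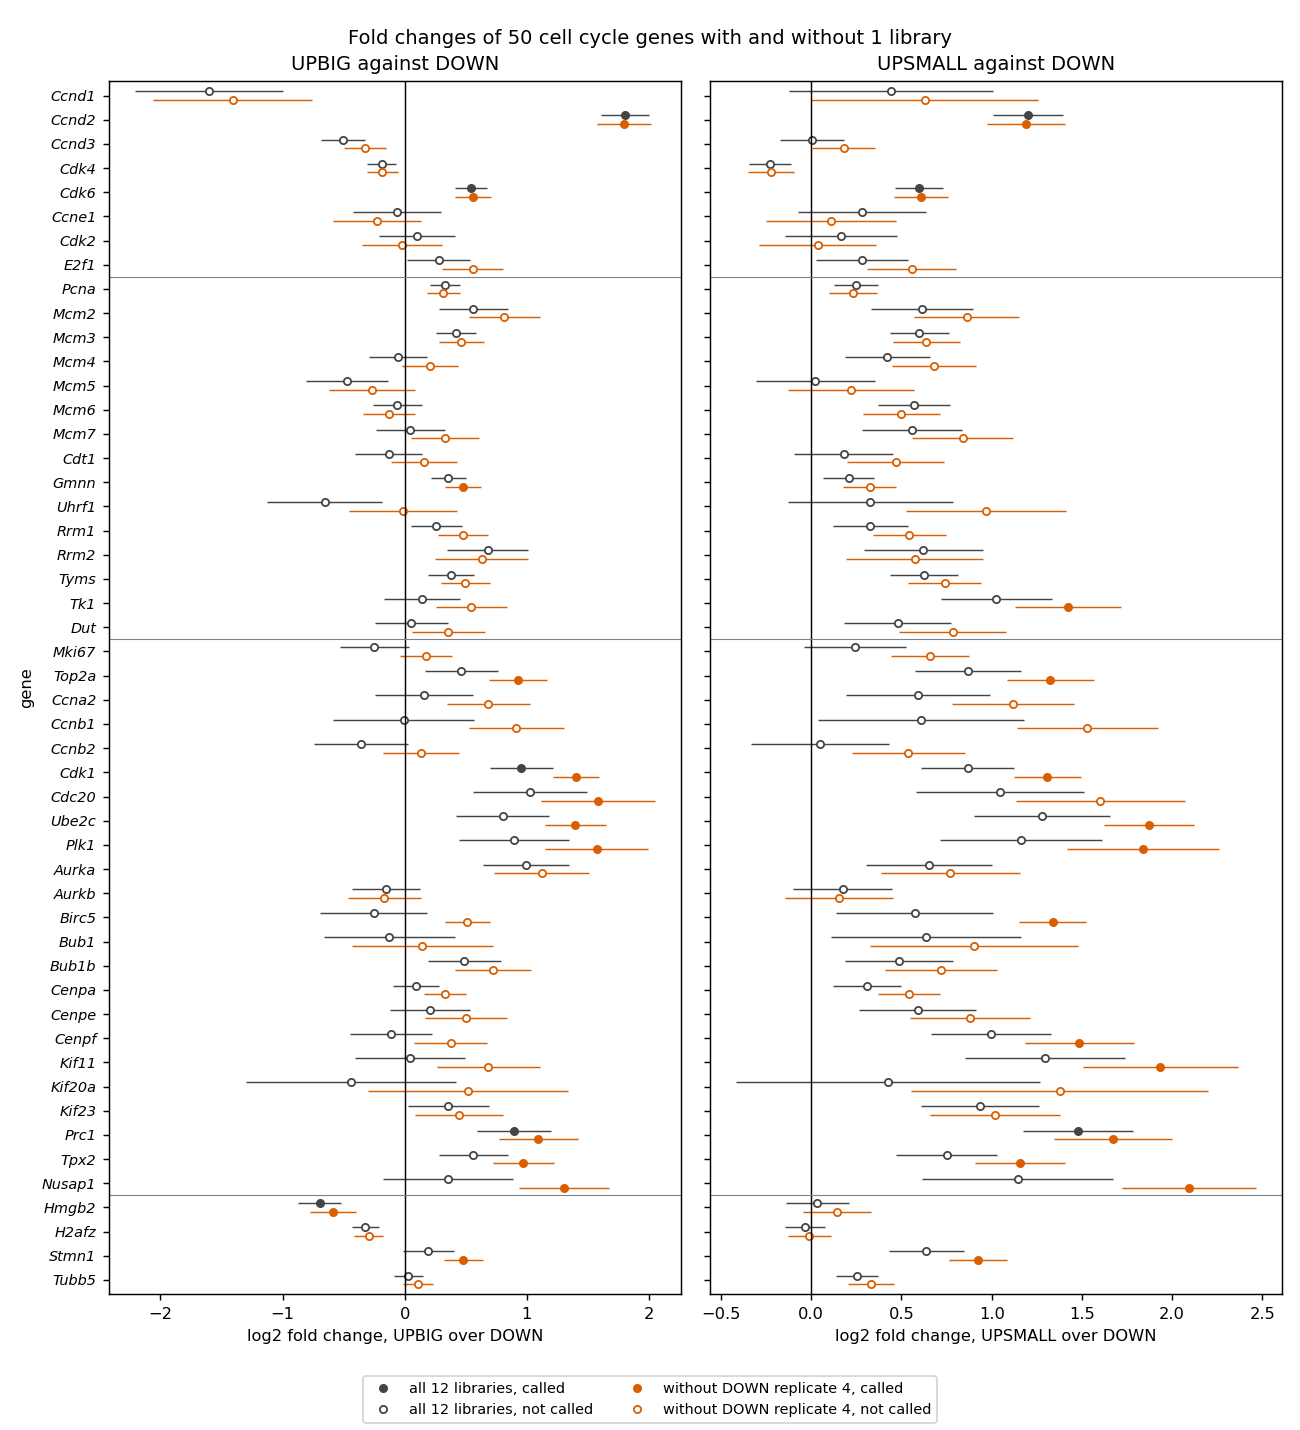
Points are log2 fold changes and lines their standard errors for the 50 genes in UPBIG over DOWN (left) and UPSMALL over DOWN (right), with all 12 libraries (grey) and without DOWN replicate 4 (orange); filled points passed the test. Orange points lie to the right of the grey ones for most mitotic genes, and the filled points in UPSMALL over DOWN number 3 with all libraries and 14 without that library.

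The 4 DOWN libraries were the least alike in mitotic transcripts. DOWN replicate 4 held the highest value of its group for 20 of 23 mitotic genes (87.0%) and 11 of 15 S phase genes (73.3%), against 29.3% of all tested genes. The 3 mitotic exceptions were Aurkb, Bub1b and Kif23. Its median ratio to the mean of the other 3 DOWN libraries was 2.44 over the mitotic genes, 1.61 over the S phase genes, 0.99 over the G1 genes and 0.988 over all tested genes. The ratio was 4.69 for Kif20a, 4.65 for Nusap1, 4.52 for Ccnb1 and 3.74 for Birc5, the 4 highest of the mitotic genes, and was 1.54 for Prc1 and 0.92 for Aurkb, a kinase of the chromosomal passenger complex. At the other end, DOWN replicate 1 held the lowest value of all 12 libraries for 14 of 23 mitotic and 7 of 15 S phase genes, against 8.02% of all tested genes. UPSMALL replicate 4 held the highest value of all 12 for 9 mitotic and 6 S phase genes, against 11.5% of all tested genes.

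The balance between mitotic and S phase transcripts also varied. The summed mitotic CPM over the summed S phase CPM was 1.02, 0.759, 0.806 and 0.680 in UPBIG, 1.02, 0.966, 0.969 and 1.07 in UPSMALL, and 0.565, 0.703, 0.641 and 1.31 in DOWN. The UPSMALL libraries were the closest to each other, and DOWN held both the lowest and the highest ratio. These sums lean on a few abundant genes. Pcna and Gmnn made up 104.5 and 57.59 of the mean S phase sum of 305.4 CPM in UPBIG. In DOWN they made up 83.15 and 44.95 of 253.6 CPM. Birc5 made up 85.86 of the 387.0 mitotic CPM in DOWN replicate 4. Marker sums of DOWN replicate 4 were 113.5 CPM for T and NK cells (80.1 to 181.0 CPM in the other DOWN libraries), 175.4 CPM for dendritic cells (86.1 to 199.3 CPM) and 27.5 CPM for B cells (5.93 to 24.5 CPM). Its monocyte markers summed to 6005 CPM, the lowest of the 12 libraries (7488 to 10265 CPM in the other DOWN libraries). Of the defining markers, the T cell gene Cd3e was at 1.46 CPM or less in every library, the dendritic cell gene Flt3 was between 0 and 5.48 CPM, and the B cell gene Cd79a between 0 and 6.499 CPM. The monocyte gene Ccr2 was at 7.83 to 14.2 CPM in UPBIG, 36.1 to 97.1 CPM in UPSMALL and 168.9 to 201.7 CPM in DOWN, the neutrophil gene S100a8 at 354.2 to 387.1, 144.3 to 204.8 and 111.6 to 146.0 CPM, and the epithelial gene Sftpc at 0 to 42.7, 0 to 0.80 and 0.39 to 1.32 CPM. The whole monocyte list did not follow Ccr2. It summed to 6333 to 9439 CPM in UPBIG, 7991 to 12699 CPM in UPSMALL and 6005 to 10265 CPM in DOWN, and these ranges overlapped. Neutrophil markers summed to 388.2 to 431.4, 185.9 to 237.9 and 156.7 to 198.2 CPM in the same groups. Epithelial markers summed to 52.15 to 266.3, 63.16 to 126.4 and 64.74 to 92.76 CPM. Of the marker lists, UPBIG over DOWN called 11 of 15 alveolar macrophage genes higher, 11 of 16 T and NK cell and 10 of 14 dendritic cell genes lower, 4 of 10 monocyte genes lower, 0 of 4 B cell genes, 2 of 5 neutrophil genes higher and 1 lower, and 1 of 8 epithelial genes higher and 2 lower. UPBIG over UPSMALL called 7 alveolar macrophage genes higher, 1 T and NK cell gene higher, 4 dendritic cell and 2 monocyte genes lower, 2 neutrophil genes higher and 1 lower, and 1 epithelial gene lower. UPSMALL over DOWN called 5 alveolar macrophage genes higher and 8 T and NK cell, 2 dendritic cell and 2 monocyte genes lower. Backgrounds for higher and lower calls were 9.03% and 8.48% of tested genes in UPBIG over DOWN. They were 3.22% and 2.49% in UPBIG over UPSMALL, and 0.594% and 0.547% in UPSMALL over DOWN. Without DOWN replicate 4, UPBIG over DOWN called 8 of 17 tested T and NK cell, 9 dendritic cell and 5 monocyte genes lower and 0 epithelial genes higher, and UPSMALL over DOWN called 4 alveolar macrophage genes higher and 1 dendritic cell gene lower. Backgrounds in that fit were 8.24% higher and 7.23% lower in UPBIG over DOWN, and 0.789% and 0.534% in UPSMALL over DOWN. The B cell count of 0 holds for all 3 pairs, for an unadjusted p under 0.05 and for DESeq2 and limma-voom. The part of these cells in the cell cycle values was not tested.

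The chromatin gene Hmgb2, which encodes an architectural DNA-binding protein, was lowest in UPBIG. It had 56.8, 41.1, 69.5 and 45.5 CPM in UPBIG, 83.2, 68.5, 83.0 and 118.2 CPM in UPSMALL, and 72.0, 82.6, 87.8 and 102.6 CPM in DOWN. UPBIG lay wholly below DOWN, and all but UPBIG replicate 3 lay below UPSMALL. Hmgb2 fell by 0.73 ± 0.18 on the log2 scale in UPBIG over UPSMALL (adjusted p = 0.0181) and by 0.70 ± 0.18 in UPBIG over DOWN (adjusted p = 0.00993), and UPSMALL over DOWN gave 0.03 ± 0.18 (adjusted p = 0.963). The call against DOWN was kept in all 12 fits without a library; that against UPSMALL was kept in 9 and lost without UPBIG replicate 2, UPBIG replicate 4 or UPSMALL replicate 4 (adjusted p up to 0.0692).

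H2afz, the gene of the histone variant H2A.Z, held the highest level per kilobase of the 50 genes, a mean of 470.5 CPM per kilobase in UPBIG, 574.3 in UPSMALL and 587.9 in DOWN. Not divided by length, it had 724.2 to 910.7 CPM in UPBIG, 960.7 to 1079.3 CPM in UPSMALL and 922.2 to 1207.6 CPM in DOWN. UPBIG lay below both other groups with no overlap, by -0.29 ± 0.11 (adjusted p = 0.161) and -0.32 ± 0.11 (adjusted p = 0.0544), which did not pass. DESeq2 and limma-voom called H2afz lower in UPBIG over DOWN. In edgeR, library totals alone and a fit with the replicate number as a block called it lower in UPBIG in both pairs. Stmn1, a regulator of microtubule turnover, had 122.6 to 152.8 CPM in UPBIG, 172.0 to 197.8 CPM in UPSMALL and 67.0 to 181.7 CPM in DOWN, and rose without DOWN replicate 4 in UPBIG over DOWN (0.48 ± 0.16, adjusted p = 0.0499) and UPSMALL over DOWN (0.92 ± 0.16, adjusted p = 0.00929). With all libraries, DESeq2 and limma-voom called Stmn1 higher in UPSMALL over DOWN. Tubb5, a beta-tubulin gene, had 173.2, 172.6, 191.8 and 165.9 CPM in UPBIG, 215.2, 185.6, 177.0 and 242.9 CPM in UPSMALL, and 163.9, 179.4, 150.5 and 194.5 CPM in DOWN. Its groups overlapped, with log2 fold changes of -0.22 ± 0.12, 0.03 ± 0.12 and 0.25 ± 0.12 in UPBIG over UPSMALL, UPBIG over DOWN and UPSMALL over DOWN (adjusted p = 0.340, 0.899 and 0.371). On library totals alone Tubb5 was called lower in UPBIG over UPSMALL, at -0.51 (adjusted p = 0.0252).

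Over all 50 genes, groups that did not overlap at all numbered 10 lower and 0 higher in UPBIG against UPSMALL (5.35% and 6.47% of all tested genes), 3 higher and 3 lower in UPBIG against DOWN (11.0% and 10.3%), and 7 higher and 0 lower in UPSMALL against DOWN (3.87% and 4.38%). The 10 were Ccnd1, Mcm6, Tk1, Birc5, Cenpf, Kif11, Kif23, Prc1, H2afz and Stmn1. In UPBIG against UPSMALL, edgeR with all libraries, TMM scaling and the filter called none of these 10, while DESeq2 called Ccnd1, Cenpf and Mcm6 lower and limma-voom called Cenpf and Tk1 lower. The 7 were Ccnd2, Cdk6, Mcm3, Mcm6, Tyms, Kif23 and Prc1.

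Other genes of the pathway were read from lists that are not part of the 50. Of 9 tested CDK inhibitor and RB family genes, UPBIG over DOWN had 1 higher and 1 lower (backgrounds 9.03% and 8.48% of tested genes). UPBIG over UPSMALL had 0 higher and 1 lower (3.22% and 2.49%), and UPSMALL over DOWN had 0 of either (0.594% and 0.547%). Cdkn1a, which encodes the CDK inhibitor p21, rose by 0.96 ± 0.16 in UPBIG over DOWN (adjusted p = 0.00029). It had 160.4, 195.0, 160.4 and 144.1 CPM in UPBIG, 154.9, 127.4, 123.0 and 123.5 CPM in UPSMALL, and 83.4, 81.5, 115.0 and 59.3 CPM in DOWN. Thus all UPBIG and UPSMALL libraries lay above all DOWN libraries (11.0% and 3.87% of all tested genes did so for UPBIG and UPSMALL). Unlike Ccnd2, Cdkn1a was not called in UPSMALL over DOWN with all libraries. DESeq2 and limma-voom called it there, as did edgeR on library totals alone, at 0.61 (adjusted p = 0.0492). Without DOWN replicate 4, edgeR did not, at 0.52 ± 0.14 (adjusted p = 0.0936). Cdkn2d, the gene of an INK4 inhibitor of CDK4 and CDK6, went the other way: it averaged 12.7 ± 4.46 CPM (SD, n = 4) in UPBIG, 22.1 ± 3.89 CPM in UPSMALL and 22.4 ± 3.92 CPM in DOWN. It fell by 0.79 ± 0.22 in UPBIG over UPSMALL (adjusted p = 0.0418) and by 0.82 ± 0.22 in UPBIG over DOWN (adjusted p = 0.0153).

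Of 17 tested genes of the E2F, MYB, FOXM1 and MYC factors and their partners, 0 were called by edgeR in any pair or by the joint test. Backgrounds for higher and lower calls were 3.22% and 2.49% of tested genes in UPBIG over UPSMALL. They were 9.03% and 8.48% in UPBIG over DOWN, 0.594% and 0.547% in UPSMALL over DOWN, and 13.8% by the joint test. At an unadjusted p under 0.05, which these backgrounds do not cover, there were 1, 3 and 1 in UPBIG against UPSMALL, UPBIG against DOWN and UPSMALL against DOWN. DESeq2 called 1 in each comparison of UPBIG (Mybl2 against UPSMALL and Tfdp2 against DOWN), limma-voom 1 (Tfdp2 in UPBIG against DOWN), and neither called any in UPSMALL against DOWN. Of 36 further replication genes, 2 rose in UPBIG over DOWN, a share below the background of 9.03% for higher calls. They were Rfc5, a clamp loader subunit, at 0.68 ± 0.15 (adjusted p = 0.00388), and Chaf1b, of the chromatin assembly factor, at 0.89 ± 0.29 (adjusted p = 0.0405). Chaf1b lost its call without DOWN replicate 4, at 0.83 ± 0.32 (adjusted p = 0.087), and both lost it on library totals alone, at 0.36 for Rfc5 and 0.56 for Chaf1b (adjusted p = 0.0985 and 0.153). Chek1, a checkpoint kinase gene, rose in UPSMALL over DOWN by 2.97 ± 0.69 (adjusted p = 0.0406), on 183 counts in 4 UPSMALL libraries and 21 in 4 DOWN libraries; without DOWN replicate 4 it also passed in UPBIG over DOWN, at 2.30 ± 0.76 (adjusted p = 0.0479). The DNA ligase gene Lig1 was called by the joint test alone (adjusted p = 0.0324), with 6.20 ± 0.98 CPM (SD, n = 4) in UPBIG, 9.00 ± 1.08 CPM in UPSMALL and 5.13 ± 0.60 CPM in DOWN. Of 55 further mitosis genes, 1 fell in UPBIG over UPSMALL (the centromere gene Cenpm, by 1.14 ± 0.32, adjusted p = 0.0434) and 1 in UPBIG over DOWN (Espl1, the gene of separase, by 1.32 ± 0.36, adjusted p = 0.0152). Both shares lay below the backgrounds for lower calls in these pairs, 2.49% and 8.48%. These 55 had 51 log2 fold changes above 0 in UPSMALL over DOWN (49.7% of all tested genes), with a median of 0.57. The same libraries enter all 55, so the signs are not separate observations. DOWN replicate 4 held the group's highest value for 39 of the 55 (29.3% of all tested genes). Without DOWN replicate 4, the median of the 55 in UPSMALL over DOWN was 0.91, with 3 called higher (background 0.789%). UPBIG over DOWN then had 3 called higher and 1 lower (backgrounds 8.24% and 7.23%).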

How the data were processed

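The authors deposited 1 table of RSEM expected counts per gene for 12 libraries, made from reads aligned with STAR to mm10, per the submitters' processing notes; their versions, the annotation release and the strandedness were not given in the sources used here. Per the labels' protocols, cells were lysed directly and full-length cDNA was amplified with the SMART-Seq HT Kit, so amplification is part of every value. Of the deposited values, 13.8% were not exactly whole. Symbols, coordinates and exon lengths came from GENCODE vM21, which matched 26808 of 26855 identifiers.

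Expected counts were rounded, filtered (filterByExpr, 12625 genes left) and fitted over all 12 libraries by robust quasi-likelihood F tests on TMM-scaled totals (edgeR 4.0.16, R 4.3.3; group alone in the model, Benjamini-Hochberg over all tested genes). The alternatives used limma 3.58.1, DESeq2 1.42.0, other scalings and filters, a replicate block, only the 8 libraries compared, and each library left out. CPM is relative to the TMM-scaled total. Sums, ratios and ranks by library carry no test. The fit was tested on simulated data with known changes.

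Members called in any comparison, and 12 genes fixed by name, were to be given in every library; mitotic genes called only without DOWN replicate 4 were named after their values were seen. The members, lists and rule were chosen with earlier results of these data known.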

Additional observations from a re-analysis of the deposited data

Results flagged for a closer look

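In 162 groups of 4 libraries (50 genes and 4 summed levels in 3 groups), the highest or lowest library was tested for a gap to its nearest neighbour that is large beside the range of the group. For separate groups of normally spread values, chance alone marks about 5%. Here 12 were marked. The genes come from the same libraries and the sums are made of these genes, so a single library can mark several groups. The 12 can therefore not be set against the 5%. The cause was not tested for any of them.

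Of the 12, 7 were DOWN replicate 4. It had 43.28 CPM of Mki67 (the other DOWN libraries 16.1 to 20.75), 26.92 CPM of Cdk1 (10.25 to 12.02), 10.94 CPM of Tk1 (4.462 to 5.44) and 31.73 CPM of Cenpa (18.14 to 19.93). It also had 3.018 CPM of Cdc20 (0.862 to 1.212), 7.968 CPM of Kif20a (1.212 to 2.311) and a summed G1 level of 192.7 CPM (170.6 to 173.9).

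UPSMALL replicate 4 had 29.64 CPM of Top2a (the other UPSMALL libraries 17.48 to 19.07) and a summed mitotic level of 386.9 CPM (307.4 to 320.3). Among the UPBIG libraries, replicate 1 had 0.1246 CPM of Ccnd1 (the others 0.6445 to 0.6819), replicate 3 had 8.379 CPM of Cenpe (4.361 to 5.021) and replicate 4 had 43.57 CPM of Ccnd3 (33.71 to 33.95).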

How the results depend on the processing

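Counts of called members moved with most settings, and the cause was not tested. The share of all tested genes called is given only for the fits with all libraries and without DOWN replicate 4. Counts under the other settings are therefore no result about the members alone. Library totals alone, which shift the median log2 fold change of all tested genes to -0.31 in UPBIG over UPSMALL and -0.36 in UPBIG over DOWN, gave 9 lower in UPBIG over UPSMALL, 1 higher and 5 lower in UPBIG over DOWN, and 14 by the joint test. Without a filter there were 1 higher and 7 lower in UPBIG over UPSMALL, 2 lower in UPBIG over DOWN, 10 higher in UPSMALL over DOWN and 16 by the joint test. A filter of 5 CPM in 4 libraries gave 2 lower in UPBIG over UPSMALL and 3 lower in UPBIG over DOWN. Only the 8 libraries compared gave 1 higher and 4 lower, and 2 lower, in the same pairs. DESeq2 gave 1 higher and 4 lower in UPBIG over UPSMALL, 3 lower in UPBIG over DOWN, 7 higher in UPSMALL over DOWN and 13 by the joint test; limma-voom gave 1 higher and 3 lower, 8 higher and 2 lower, 9 higher, and 18.

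With the replicate number as a block there were 4 lower in UPBIG over UPSMALL (Ccnd3, Cenpf, H2afz and Hmgb2) and 3 lower in UPBIG over DOWN (Ccnd3, H2afz and Hmgb2). Higher in UPBIG over DOWN were Ccnd2, Cdk1, Cdk6, Gmnn, Pcna and Prc1. There were 6 higher in UPSMALL over DOWN (Ccnd2, Cdk1, Cdk6, Prc1, Stmn1 and Top2a) and 15 called by the joint test. No label says that a number marks a shared mouse or day. Deviations of libraries with the same number correlated at -0.0285 to 0.154, with 10 of 12 pairs above 0 and 5 above 0.1. Of the pairs with different numbers, 8 of 36 lay above 0 (-0.124 to 0.115). Deviations from a group mean sum to 0 within the group, so same-number pairs above 0 push the rest below 0. The different-number pairs are thus no separate comparison. Of the 12 libraries, 7 correlated best with their own number in both other groups. This is a hint from the data of a partial pairing, not part of the design, so the block was kept as an alternative.

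With each library left out in turn, UPBIG over UPSMALL had 0 to 1 higher and 0 to 3 lower, UPBIG over DOWN 2 to 12 higher and 1 to 2 lower, UPSMALL over DOWN 1 to 14 higher, and the joint test called 4 to 16. Without both UPSMALL replicate 4 and DOWN replicate 4, a setting chosen after seeing the data, there were 4 lower, 12 higher and 10 higher in these pairs, and 17. The log2 fold change of Mki67 in UPBIG over DOWN turned to 0.17 without DOWN replicate 4 and to 0.17 without both, and that of Cdk6 in UPBIG over UPSMALL to 0.049 without UPBIG replicate 4; none of these was called. Over the 12 fits without a library these values ran from -0.44 to 0.17 for Mki67 and from -0.099 to 0.049 for Cdk6. Counts of members at their highest or lowest value, by library, kept within 1.5 times under both other scalings. Genes under about 1 CPM, such as Ccnd1 in UPBIG, rest on few reads.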
